A study of Homo sapiens with 4 samples.

Results

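The genes studied were 7 neighbours on human chromosome 11q13: *CCND1*, *LTO1*, *ANO1*, *FADD*, *PPFIA1*, *CTTN* and *TPCN2*. They were followed through their polyadenylation site clusters (PACs), the groups of nearby positions at which mRNAs end. A PAC was taken when its dominant site, the position with the most tags, lay inside the same-strand GENCODE release 44 span of one of these genes. This gave 11 of the 17627 PACs of the series, in 6 of the 7 genes, and no PAC of *TPCN2* was listed in any of the 4 libraries. On GRCh38, *TPCN2* spans chr11:69048932-69136316, *CCND1* chr11:69641156-69654474, *ANO1* chr11:69985907-70189530, *FADD* chr11:70203296-70207390, *PPFIA1* chr11:70270690-70385312 and *CTTN* chr11:70398404-70436584, all on the plus strand. *LTO1* spans chr11:69653076-69675416 on the minus strand. All 11 PACs were listed in each KYSE30 library and 9 of them in each TE-1 library.

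KYSE30 and TE-1 are established lines of esophageal squamous cell carcinoma (ESCC). In each line, 1 culture received 20 mM L-lactate for 24 h and 1 control received PBS, and mRNA 3′ ends were sequenced by PAS-seq. The 4 groups therefore hold 1 library each, so no difference below has a replicate check. No test between conditions was made, and a fit of line and treatment together, which would leave 1 residual degree of freedom, was not run. The cell line labels of the control libraries read KYSE32 and TE-3, while their titles name the same lines as the treated libraries, and the titles were followed. Over the PACs listed in both libraries of a pair, Spearman's rho was 0.980 within each titled line and 0.805 to 0.814 between lines, as a description of libraries with different depths.

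The 11q13 region is often gained in squamous cancers, and *CCND1* is its best known gene. It encodes cyclin D1, which activates the kinases CDK4 and CDK6 and so relieves the block that the retinoblastoma protein places on the cell cycle. *CTTN* encodes cortactin, which binds branched actin, *PPFIA1* encodes liprin-alpha-1 of focal adhesions, and *FADD* encodes the adaptor that links death receptors to caspase-8. *ANO1* encodes a calcium-activated chloride channel, *TPCN2* a cation channel of the lysosome, and *LTO1* a factor that helps to mature the protein ABCE1. *CCND1* is also a textbook case of a gene whose mRNA can carry a long or a shortened 3′ UTR. Copy number was not measured here. In a bulk library, fewer cells that use a gene and less RNA per cell cannot be told apart.

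The sequences at the 3′ ends that carry the results are shown here, since they hold the letters read by the cleavage machinery. Each is the 30 nt of the plus strand of GRCh38 that ends at the site, on chromosome 11, written 5′ to 3′. Capitals mark the hexamer AATAAA or, in its absence, the variant ATTAAA, where one lies in the printed run. A lower quantile site is the position by which the most upstream 10% of a PAC's tags have ended.
*CCND1*, dominant site, chr11:69654445-69654474: aagtctagaAATAAAactggtaaaacccca
*CCND1*, lower quantile site in the TE-1 L-lactate library, chr11:69653943-69653972: aatgctaatttaaagagactccaaatctca
*ANO1*, dominant site, chr11:70189499-70189528: acattcatctaAATAAAtttgaatatacga
*ANO1*, lower quantile site in both KYSE30 libraries, chr11:70189013-70189042: tttttattAATAAAggcttatattttggta
*CTTN*, distal 3′ UTR PAC, chr11:70436546-70436575: aagaattcagAATAAAcattttttgatcca
*CTTN*, proximal 3′ UTR PAC, chr11:70435360-70435389: tttgctaatatattgtaatcacattcctta
*FADD*, 3′ UTR PAC, chr11:70207348-70207377: atcctATTAAAacacagctttacaacttcc
*PPFIA1*, intronic PAC, chr11:70363330-70363359: atgtgtataaacaagatcatgtagtattca
Of the 8 3′ UTR PACs of these genes, 5 had AATAAA in the 50 nt before the site, 1 had ATTAAA alone and 2 had neither. Over all 13688 3′ UTR PACs the shares were 66.6%, 16.8% and 16.6%. The 4 letters TGTA, the DNA form of the core that the cleavage factor subunit NUDT21 is known to bind, occurred in the 100 nt before 6 of the 8 sites, and before 58.0% of all 3′ UTR PACs. These searches covered the strand of the gene only, and a match is a description of the letters. No site of the 11 was followed by 7 or more A anywhere in the next 10 nt, an A-rich stretch that oligo(dT) can bind inside an mRNA. Such a stretch followed 1.60% of the 17621 PACs with a reference sequence. The *CTTN* PAC in intron 4 and the main PACs of *PPFIA1* and *FADD* were followed by 6 A.

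Levels are given as TPM, the tags of all PACs of a gene per 1000000 tags of its library. Since each tag marks 1 transcript end, the TPM holds no term for gene length. The libraries held 7425554 (KYSE30 control), 7174991 (KYSE30 L-lactate), 10393799 (TE-1 control) and 8468958 (TE-1 L-lactate) tags. Intervals are 95% intervals for counting error only. They do not cover differences between cultures. Ratios were called between lines at 2-fold in both treatments, on log2(TPM + 1), among genes with TPM of at least 5 in any library compared.

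Between the lines, 4 of the 6 genes with a PAC were called higher in KYSE30, which were *ANO1*, *FADD*, *PPFIA1* and *CTTN*. None was called higher in TE-1. Over all 10148 genes compared, 17.5% were called higher in KYSE30 and 15.5% higher in TE-1. The median log2 ratio of the 6 genes was 2.37 in the control and 2.23 in the L-lactate libraries, beside 0.03 and -0.01 over all genes compared. *ANO1* passed the filter on low values through KYSE30 alone, and without it the count was 3 of 5 and the medians 2.22 and 2.14. The all-gene shares above include genes that passed through 1 line alone. With TPM of at least 5 in all libraries, 7434 genes could be compared. Of these 7434, 732 were called higher in KYSE30, in place of 1772, and 672 higher in TE-1, in place of 1577. Within 5 Mb of the *CCND1* start, 9 of 109 genes (8.26%) past the filter in each line were called higher in KYSE30, the group included.

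*CTTN* had the highest level of the 7 genes in every library. Its TPM was 1509 and 1423 in the KYSE30 control and L-lactate libraries, and 262 and 282 in those of TE-1. The KYSE30 values were 5.77-fold (5.53 to 6.02) those of TE-1 in the controls and 5.04-fold (4.82 to 5.27) with L-lactate. These ratios rest on 2391 to 11208 tags a library, the narrowest counting error of the group.

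*PPFIA1* showed the widest ratio among the genes listed in both lines. Its TPM was 124 and 123 in KYSE30 and 19.1 and 22.4 in TE-1, control before L-lactate. The ratio of KYSE30 to TE-1 was 6.50 (5.57 to 7.62) in the controls and 5.48 (4.68 to 6.44) with L-lactate, so both treatments placed the lines well apart. *FADD* had the narrowest ratio of the called genes listed in both lines, with TPM of 104 and 117 in KYSE30 against 21.6 and 25.9 in TE-1. Its ratio was 4.83 (4.16 to 5.63) in the controls and 4.53 (3.90 to 5.28) with L-lactate.

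*ANO1* was listed in KYSE30 alone, at TPM 65.7 in the control and 59.5 with L-lactate, from 488 and 427 tags. No *ANO1* PAC was listed in either TE-1 library. The lowest TPM of any listed PAC was 1.06, so no fold is given for this gene.

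*CCND1* and *LTO1*, which lie tail to tail with overlapping spans on opposite strands, were not called between the lines. *CCND1* TPM was 117 (KYSE30 control), 124 (KYSE30 L-lactate), 94.7 (TE-1 control) and 106 (TE-1 L-lactate). KYSE30 was above TE-1 by 1.24-fold (1.13 to 1.36) in the controls and 1.17-fold (1.07 to 1.29) with L-lactate, more than counting error and less than the 2-fold call. *LTO1* TPM was 21.0 and 19.9 in KYSE30 and 11.6 and 13.9 in TE-1, from 118 to 156 tags. The KYSE30 values were 1.80-fold (1.41 to 2.31) and 1.43-fold (1.11 to 1.84) those of TE-1. *CCND1* thus stood near the level of *FADD* and *PPFIA1* in KYSE30 and several-fold above both in TE-1.

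**Figure D1:**
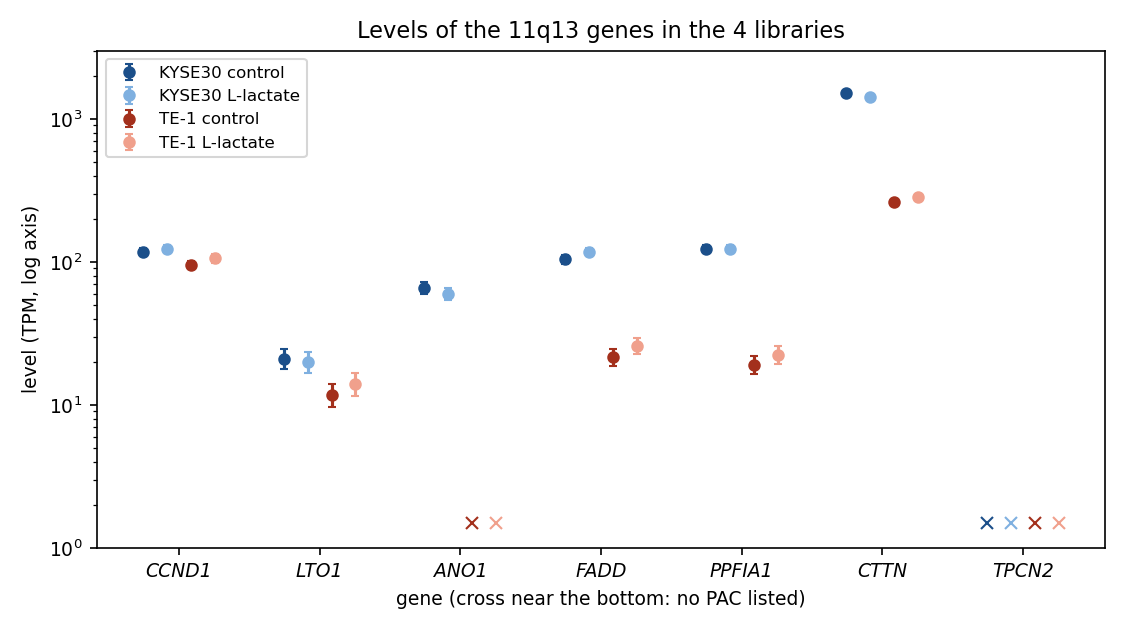
TPM (log axis) of the 7 genes in the 4 libraries, 1 point a library, with bars for the 95% counting interval and crosses for genes with no listed PAC. *CTTN*, *PPFIA1* and *FADD* lie 4.53- to 6.50-fold higher in KYSE30, *ANO1* is listed in KYSE30 alone, and the 4 *CCND1* values lie between 94.7 and 124.

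The line difference was followed along the chromosome by genes within 5 Mb of the *CCND1* start, of which 139 could be compared. Of these, 22 were called higher in KYSE30 and 26 higher in TE-1. From *CCND1* to *CTTN*, 7 genes were compared, which were 6 of the group and a long noncoding RNA, ENSG00000289074, at TPM 33.5 and 36.4 in KYSE30 and not listed in TE-1. *ANO1* and this RNA passed the filter on low values through KYSE30 alone and so could be called in 1 direction only. Of the other 5, 3 were called higher in KYSE30 and none in TE-1, with a median log2 ratio of 2.22 in the controls. Among genes that passed the filter in each line, 5 of 86 before *CCND1* and 1 of 18 past *CTTN* were called higher in KYSE30, and 9 and 4 higher in TE-1. Their median log2 ratios were -0.07 and -0.62 in the controls.

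Single neighbours on each side of the group were also read. *MYEOV*, a gene of myeloma translocations at -0.347 Mb from the *CCND1* start, had TPM 17.5 and 18.1 in KYSE30, 1.54 in the TE-1 control, and was not listed in the TE-1 L-lactate library. On the other side, 1.81 Mb past the *CCND1* start, *NADSYN1* (NAD synthetase) had TPM 49.2 and 47.2 in KYSE30 and 5.58 and 5.43 in TE-1. *DHCR7*, which makes the last step of cholesterol synthesis, had 9.97 and 13.8 against 2.98 and 4.13. Of these 3 genes, *MYEOV* and *DHCR7* passed the level filter through KYSE30 alone and so could be called in 1 direction only. Between *MYEOV* and *NADSYN1*, a stretch bounded after its values were seen, 6 genes passed the filter in each line. Of these, 4 were called higher in KYSE30, and *CCND1* and *LTO1* were not called. In the whole window, these 6 included, 9 of 109 genes past the filter in each line were called higher in KYSE30 and 13 higher in TE-1. The looser filter, passed in any library, also admits genes that could be called in 1 direction only. Under it, 12 of 127 genes in the rest of the window were called higher in KYSE30 and 26 higher in TE-1.

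Further out the order was mixed or the opposite. *GAL*, the neuropeptide galanin, had TPM 133 and 131 in KYSE30 and 353 and 324 in TE-1. *CPT1A*, the gate of fatty acids into mitochondria, had 57.9 and 68.9 against 172 and 169, and both genes were called higher in TE-1. *FOLR1*, the folate receptor, 2.55 Mb past the *CCND1* start and named after its values were seen, had TPM 1.48 and 1.53 in KYSE30 and 1648 and 2035 in TE-1. *PPP6R3*, *TESMIN*, *MRPL21* and *IGHMBP2* were not called, with KYSE30 to TE-1 ratios of 1.01, 2.06, 1.12 and 0.490 in the controls. *LRP5* (1.35 to 4.98 where listed) and *SHANK2* (3.37 in the KYSE30 control alone) were below the level filter, and *FGF3*, *FGF4*, *FGF19*, *MRGPRD* and *MRGPRF* had no listed PAC.

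**Figure D2:**
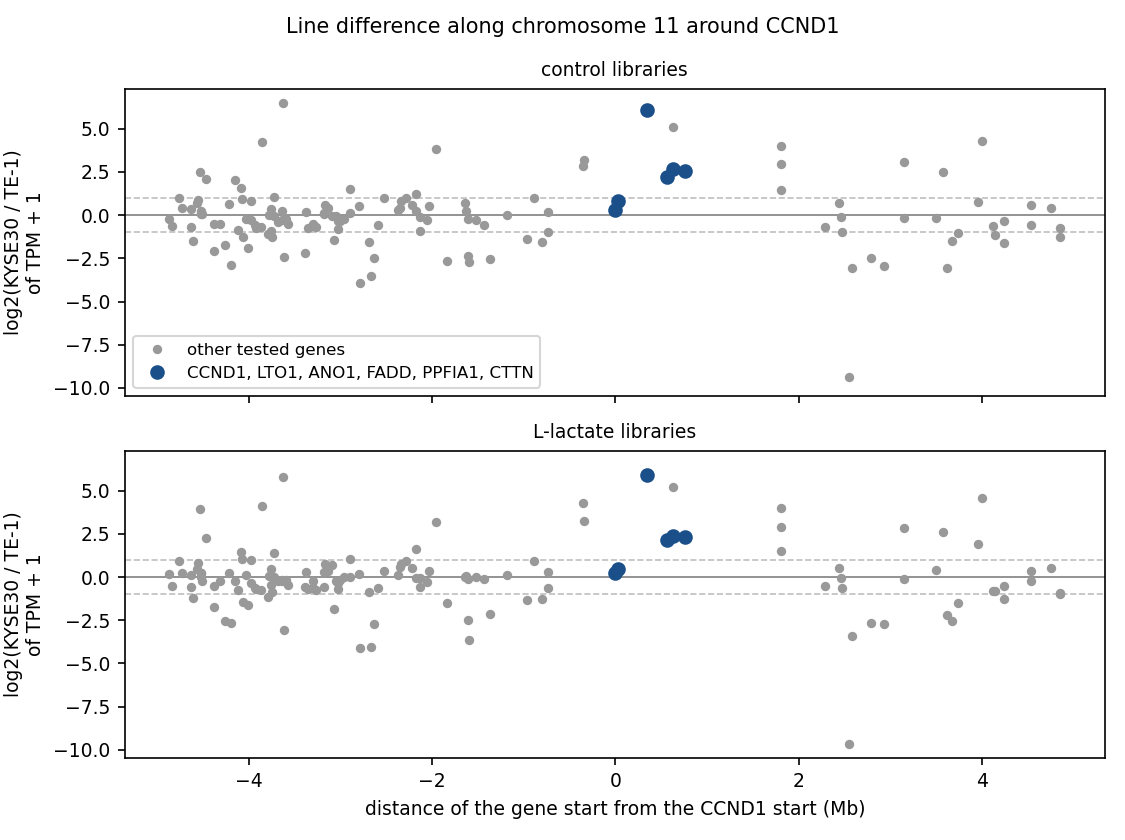
Log2 ratio of TPM + 1 of KYSE30 to TE-1 (vertical axis) against the distance of each gene start from that of *CCND1* in Mb, for the 139 genes compared, with the control libraries above and the L-lactate libraries below, and dashed lines at 2-fold. The 6 genes of the group lie above 0 in both panels, and 4 of them lie above the 2-fold line.

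With L-lactate, none of the 6 genes in KYSE30 and none of the 5 listed in TE-1 moved by 1.5-fold, the size called. Over all genes compared, 4.46% moved that far in KYSE30 and 4.34% in TE-1. The median size of the log2 change was 0.14 in each line over all genes, and 0.08 in KYSE30 and 0.19 in TE-1 over the group, with *ANO1* entering the TE-1 value at 0. Against counting error alone, the interval of the ratio left 1 for 2 of 6 genes in KYSE30 and 2 of 5 in TE-1, beside 24.4% and 30.9% of all genes. These intervals are for unscaled TPM. Scaling the libraries by their median ratio brings the lower ends of both TE-1 intervals, those of *CTTN* and *CCND1*, below 1.

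Before scaling, *CTTN* had an interval that left 1 in both lines. Its level with L-lactate was 0.943-fold (0.918 to 0.968) that of the control in KYSE30 and 1.08-fold (1.02 to 1.14) in TE-1. *CCND1* was at 1.06-fold (0.961 to 1.16) in KYSE30 and 1.12-fold (1.02 to 1.22) in TE-1. *FADD* was at 1.12-fold (1.02 to 1.24) in KYSE30 and 1.20-fold (0.991 to 1.45) in TE-1, where fewer tags widened the interval. *PPFIA1*, *LTO1* and *ANO1* had ratios of 0.992, 0.949 and 0.906 in KYSE30. In TE-1 the ratios of *PPFIA1* and *LTO1* were 1.18 and 1.20, and each of these 5 intervals held 1. All 5 ratios of TE-1 were above 1, and 4 of the 6 ratios of KYSE30 were below it.

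At *CCND1* a single PAC was listed, in the last of its 5 exons. It covered 522 nt, chr11:69653954-69654475, and its dominant site in all 4 libraries was 69654474, the annotated end of the gene and 3192 nt past the stop codon. No separate PAC of a short 3′ UTR was listed. The 3′ UTR in the reference holds 1 AATAAA, starting 3172 nt past the stop, and no ATTAAA. The search read the gene's strand over the whole 3192 nt. All tags of the gene in these tables therefore came from this PAC, 871, 889, 984 and 895 in the order KYSE30 control, KYSE30 L-lactate, TE-1 control and TE-1 L-lactate.

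Within that PAC, the share of tags at the dominant site was 85.3% (82.8 to 87.5) and 83.5% (80.9 to 85.8) in KYSE30, control before L-lactate. In TE-1 it was 81.6% (79.1 to 83.9) and 78.4% (75.6 to 81.0). With L-lactate the share fell by 1.84 percentage points in KYSE30 and fell by 3.17 percentage points in TE-1, and the intervals overlapped in each line. The 10% position, the lower quantile site of the sequences above, was 1 nt before the dominant site in 3 libraries and 502 nt before it in the TE-1 L-lactate library, at 2690 nt past the stop. A move of this position by over 24 nt with L-lactate was seen in 1.41% of 10769 PACs in TE-1 and 1.28% in KYSE30, and *CCND1* in TE-1 was the 1 case among the PACs of these genes. A 10% quantile can jump when a share lies near 10%, and the share at 2690 nt itself is not given in the tables.

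*ANO1* also had 1 PAC, of 503 nt, listed in KYSE30 alone. Its dominant site lay 1524 nt past the stop, with AATAAA ending 13 nt before it. The 10% position lay 486 nt upstream in both KYSE30 libraries, 1038 nt past the stop, and there too AATAAA ended 16 nt before the site. The dominant site held 76.4% (72.5 to 80.0) of the tags in the control and 74.0% (69.6 to 77.9) with L-lactate. Since nearby PACs were joined, neither *CCND1* nor *ANO1* had 2 PACs from which a distal share could be taken.

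A distal share, the part of a gene's 3′ UTR tags in its last 3′ UTR PAC, needed at least 2 PACs of the 3′ UTR, each with TPM over 5 in at least 1 library compared. *CTTN* met this in both lines and *PPFIA1* in KYSE30. Neither changed by the 10 percentage points called, between lines (0 of 2 genes) or with L-lactate (0 of 2 in KYSE30 and 0 of 1 in TE-1). The control distal shares were 97.4% in KYSE30 and 94.7% in TE-1 for *CTTN*, and 95.5% in KYSE30 for *PPFIA1*. A rise of 10 points with L-lactate was therefore not possible, and only a fall could be called. Between lines, the TE-1 share of *PPFIA1* was 100%, since its other 3′ UTR PAC was not listed there. Over all genes with a distal share, 22.6% changed between lines, and 9.12% and 11.4% with L-lactate in KYSE30 and TE-1.

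*CTTN* ended mainly at a distal PAC 1413 nt past the stop, at TPM 1458 and 1378 in KYSE30 and 244 and 269 in TE-1. A proximal PAC 227 nt past the stop, with neither hexamer before it, had TPM 38.4 and 29.97 in KYSE30 and 13.7 and 10.2 in TE-1. It held 2.57% and 2.13% of the 3′ UTR tags in KYSE30 and 5.29% and 3.64% in TE-1, control before L-lactate. The distal share was thus 2.73 percentage points higher in KYSE30 than in TE-1 in the controls and 1.51 with L-lactate.

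With L-lactate the proximal *CTTN* PAC fell in both lines by more than its counting error. Its ratio to control was 0.781 (0.651 to 0.935) in KYSE30 and 0.743 (0.562 to 0.978) in TE-1. The distal PAC was at 0.945 (0.920 to 0.972) in KYSE30 and 1.10 (1.04 to 1.16) in TE-1. The distal share was 0.437 percentage points higher with L-lactate in KYSE30 and 1.65 higher in TE-1, beside median sizes of 2.95 and 3.23 over all genes. Of the 9 PACs of these genes that were listed in all 4 libraries, the proximal *CTTN* PAC was the 1 whose interval left 1 the same way in both lines. This held for 6.94% of all 12344 such PACs. A further *CTTN* PAC, in an exon of a noncoding transcript and in intron 4 of the canonical one, had TPM 3.37 to 14.9 and 1.21% or less of the gene's tags outside the TE-1 control, where it had 1.29%.

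*PPFIA1* ended mainly 1405 nt past the stop in exon 28, at TPM 114 in both KYSE30 libraries and 17.1 and 18.3 in TE-1. An alternative last exon of another transcript, at 70378465, had TPM 5.39 and 4.74 in KYSE30 and was not listed in TE-1, whose level of the gene was lower. The distal share of *PPFIA1* was 95.5% (93.9 to 96.7) and 96.0% (94.5 to 97.1) in KYSE30, and every listed 3′ UTR tag of TE-1 was in the distal PAC. The PAC at 70378465 held 4.35% and 3.85% of the gene's tags in KYSE30. At the TE-1 level of the gene, such a share could fall under the lowest listed TPM of 1.06. A TE-1 share of 100% thus cannot be told apart from a PAC left unlisted. An intronic PAC at 70363359, in intron 21 and with neither hexamer before it, had TPM 4.58 and 4.60 in KYSE30 and 1.92 and 4.13 in TE-1. It held 3.70% and 3.74% of the gene's tags in KYSE30. In TE-1 it held 10.1% (6.63 to 15.1) in the control and 18.4% (13.6 to 24.5) with L-lactate, from 20 and 35 tags. The TE-1 intervals lay above those of KYSE30 (2.66 to 5.12 and 2.68 to 5.21), and overlapped each other. Its ratio with L-lactate in TE-1 was 2.15 (1.21 to 3.93), and this PAC was below TPM 5 in all 4 libraries.

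*FADD* has 2 exons and ended mainly 904 nt past the stop, at TPM 100.5 and 112 in KYSE30 and 20.2 and 24.4 in TE-1. The dominant position held 72.5% (69.2 to 75.6) and 70.9% (67.6 to 73.9) of this PAC's tags in KYSE30 and, in TE-1, 126 of 210 tags in the control (53.3% to 66.4%) and 59.4% (52.6 to 65.9) with L-lactate. The lines thus differed by 12.5 and 11.4 percentage points in where, within 29 nt, the mRNA ended. A difference of 10 points the same way in both treatments was seen in 2.31% of 8058 PACs, and in 1 of the 5 PACs of these genes that could be compared. This measure was chosen after the data were seen. An intronic *FADD* PAC held 3.49% and 4.40% of the gene's tags in KYSE30 and 6.25% and 5.48% in TE-1, from 12 to 37 tags.

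*LTO1* ended at a single PAC, 1954 nt past the stop in its last exon on the minus strand, with neither hexamer in the 50 nt before it. Its dominant position held 85.9% and 78.3% of the tags in KYSE30 and 76.0% and 83.1% in TE-1, so the direction with L-lactate was opposite in the lines and rested on 118 to 156 tags.

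**Figure D3:**
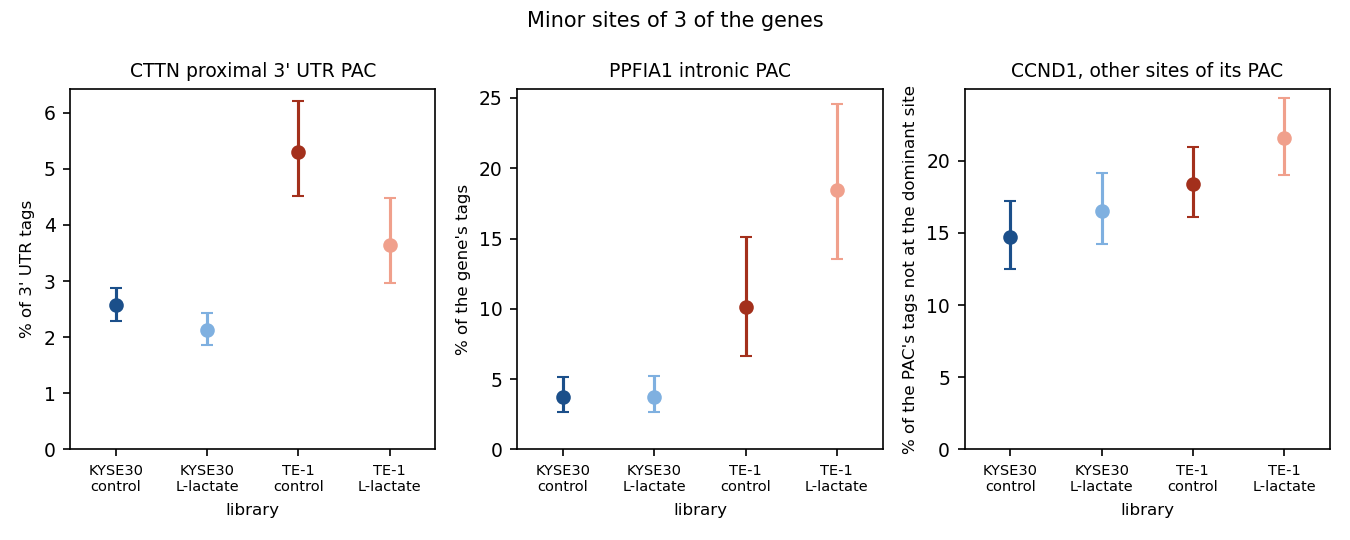
Shares in percent, each axis starting at 0, for the proximal *CTTN* PAC among 3′ UTR tags, the intronic *PPFIA1* PAC among the gene's tags, and the positions other than the dominant one in the *CCND1* PAC, 1 point a library with 95% Wilson intervals. The *CTTN* share is lowest in KYSE30 with L-lactate (2.13%) and highest in the TE-1 control (5.29%), and the *PPFIA1* share is highest in TE-1 with L-lactate (18.4%).

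Genes that work with these 7 were compared in the same way. The share of all genes called was 17.5% higher in KYSE30 and 15.5% higher in TE-1, as a measure for the counts below. Of 15 compared genes of the cyclin D axis, 3 were called higher in KYSE30, 5 higher in TE-1 and 7 neither, with a median log2 ratio of -0.51 in the controls. The retinoblastoma relative *RBL2* and the kinase inhibitors *CDKN1A* and *CDKN2B* were higher in KYSE30, by 2.72-, 3.56- and 3.15-fold in the controls. *CDKN2A*, *CDKN2C*, *E2F1* and *CCNE1* were higher in TE-1, by 3.92-, 2.28-, 2.16- and 2.82-fold. *CCND2*, which encodes cyclin D2, was listed in TE-1 alone, at TPM 34.0 and 30.9, and so could be called in 1 direction only.

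Among 8 compared genes of the death pathway of *FADD*, the receptor *FAS* was higher in KYSE30, at TPM 21.7 in both libraries against 6.25 and 9.33. The receptor *TNFRSF10A* was higher in TE-1, at 11.2 and 11.3 against 3.91 and 4.46, and 6 genes were not called. Of 15 compared partners of cortactin and liprin, *ARPC2*, a subunit of the Arp2/3 complex, was 3.49-fold higher in KYSE30 in the controls, and the liprin-beta genes *PPFIBP1* and *PPFIBP2* were 3.34- and 6.94-fold higher. *WIPF1*, which binds the activator WASL, was listed in TE-1 alone at 50.7 and 49.0, and 11 genes were not called. *TNFRSF10A* and *WIPF1* passed the level filter through TE-1 alone and *PPFIBP2* through KYSE30 alone, so each could be called in 1 direction only. None of the 5 compared relatives of *ANO1*, *TPCN2* and *LTO1* was called, *TPCN1* and the *LTO1* partner *YAE1* included. No compared gene of these lists was called at 1.5-fold with L-lactate on log2(TPM + 1) in either line. *CCNE1* lay closest in KYSE30, with TPM of 7.14 in the control and 11.2 with L-lactate, a ratio of 1.56 (1.09 to 2.25) before the pseudocount of 1 was added.

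The genes whose profile over the 4 libraries lay closest to that of *CCND1*, by root mean square distance of centred log2(TPM + 1) values among 7434 genes, were *WBP11* (0.014), *PSMD12* (0.015) and *RBBP4* (0.015). *WBP11* TPM, for example, was 214 and 226 in KYSE30 and 174 and 189 in TE-1.

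Epithelial markers also differed between the lines, and their part in the results was not tested. Of 8 squamous markers, *KRT6A* was listed in KYSE30 alone (20.3 and 40.4) and *KRT17* in TE-1 alone (245 and 187), while *KRT5*, *KRT14*, *TP63*, *SFN*, *DSG3* and *PKP1* were not listed. All 5 simple epithelial markers were listed, with a summed TPM of 4914 and 4936 in KYSE30 and 1209 and 1175 in TE-1. The keratin *KRT8* was at 2154 and 2229 in KYSE30 and 1004 and 969 in TE-1. *KRT19* was at 1699 and 1574 in KYSE30, had no listed PAC in the TE-1 control and was at 2.95 in the other TE-1 library. The adhesion molecule *EPCAM* was at 563 and 635 in KYSE30 and 30.7 and 36.4 in TE-1. *CDH1* was at 204 and 228 in KYSE30, while TE-1 had no listed *CDH1* PAC in the control and 1.30 with L-lactate. Of 6 mesenchymal markers, *FN1* was called higher in KYSE30 and *CDH2*, *ZEB1* and *COL1A1* higher in TE-1, while *VIM* was not listed, and the summed TPM was 76.2 to 130.0 in KYSE30 and 41.9 to 44.9 in TE-1. All 4 called markers passed the level filter through 1 line alone and so could be called in 1 direction only. None of 3 leukocyte markers was listed, and of 2 endothelial markers *CDH5* was listed in KYSE30 alone (16.2 and 11.2). With L-lactate, *KRT6A* and *FN1* were the markers called at 1.5-fold, both in KYSE30. Their ratios to control were 1.99 (1.63 to 2.44) and 0.580 (0.521 to 0.646), beside 4.46% of all genes called in that line.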

How the data were processed

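PAS-seq libraries of KYSE30 and TE-1 cells (1 control and 1 L-lactate library a line) were grouped by their titles. Per the paper's methods, reads were trimmed with FASTX-Toolkit 0.0.13, those under 16 nt removed, and the rest aligned to GRCh38 with HISAT2. CAGEr then gave the sites. Sites with TPM under 1 were dropped, sites within 24 nt were grouped, single-site PACs with TPM under 3 were removed, and PACs with TPM over 5 within 500 nt were joined, so that a short and a long 3′ UTR closer than this appear as 1 PAC. The TPM deposited by the authors are RPM values, tags per 1000000 tags of a library with no length term. Only listed PACs are given, so a gene that is not listed may still be transcribed. The listed PACs held 92.5% to 93.1% of each library's tags.

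From these tables, the TPM worth of 1 tag was estimated for each library and used to recover whole tags (100% of values within 0.1 tags), giving 7174991 to 10393799 tags a library. Rows were joined on the PAC identifier and placed on GENCODE 44. The deposited starts are 0-based and were converted to 1-based positions. The hg38 reference sequence has the same primary coordinates as the GRCh38.p14 named in the labels. Gene levels are summed TPM. Shares have 95% Wilson intervals, and ratios of tags have exact conditional intervals, both for counting error only. With 1 library a group no p-value is given and no count model was run. Tools were SciPy 1.17.1, matplotlib 3.10.9, pandas 2.3.3 and NumPy 2.4.6 under Python 3.11.15, and the calling code was checked on artificial tags.

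The genes and lists were chosen with earlier results of these data known. The text names the 7 genes and their PACs, each of 16 neighbouring genes, genes of the other lists that were called between lines, and the 3 genes most like *CCND1*. Alternatives changed the pseudocount, scaling, filters, PACs counted, thresholds and size of change. Another used Fisher's exact test on the tags as a further condition.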

Additional observations from a re-analysis of the deposited data

Results flagged for a closer look

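*CTTN* was singled out because its level moved in opposite ways in the lines with L-lactate, each by more than its counting error before scaling. The ratio of L-lactate to control was 0.943 in KYSE30 and 1.08 in TE-1. Scaling the libraries by their median ratio changed the log2 ratio of TPM + 1 from 0.110 to 0.066 in TE-1. In KYSE30 it went from -0.085 to -0.089. Dividing the TE-1 levels by their scaling factors, 0.984 for the control and 1.01 for L-lactate, brings the lower end of the TE-1 interval, 1.02, below 1. The TE-1 change thus did not stay beyond counting error after scaling. Over all genes, the interval left 1 for 24.4% in KYSE30 and 30.9% in TE-1, and opposite moves were not counted. The difference between the lines was not tested, since each group holds 1 library. Both ratios were well under the 1.5-fold called, and differences between cultures of that size cannot be told apart from the treatment here. The distal PAC carried the opposite directions, at 0.945 and 1.10, while the proximal PAC was lower with L-lactate in both lines, at 0.781 and 0.743.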

How the results depend on the processing

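Of 66 counts of the 11q13 genes under alternatives, all 66 equalled their main value within 1.5 times, but most were 0 throughout. The 4 genes higher in KYSE30 became 3 with TPM of at least 5 in all libraries compared. They also became 3 when a PAC had to be listed in every library. Changing only the level filter, fold, percentage points or Fisher's test could not move a single value. *CCND1* and *LTO1*, with 1 PAC each, kept their ratios under every choice of PACs. Of 241 single values, 237 stayed inside their counting interval. The other 4 were the distal shares of *CTTN* when all PACs of the gene formed the total (96.6%, 96.8%, 93.5% and 95.2% in place of 97.4%, 97.9%, 94.7% and 96.4%). Each log2 ratio of these genes kept its sign in every alternative that gave one. Counts and distal shares have no sign, so a reversal could not be seen in them. With the L-lactate libraries alone, chosen after seeing the data, the 4 genes were again higher in KYSE30, as were 1950 of all genes (main 1772), with 1823 higher in TE-1 (main 1577). Counts over all genes did move. Genes called with L-lactate in KYSE30 and TE-1 (main 406 and 388) were 151 and 155 with a pseudocount of 5, 878 and 850 with no filter, 203 and 193 with TPM of at least 5 in all libraries compared, 234 and 231 when a PAC had to be listed in every library, 1586 and 1534 at the lower of the alternative folds, and 94 and 79 at 2-fold. Genes higher in KYSE30 and in TE-1 were 732 and 672 under the stricter filter, 999 and 895 under that condition on PACs, and 910 and 799 at 4-fold. At 1.5-fold, 2643 were higher in KYSE30 and 2458 in TE-1. Genes with a changed distal share in KYSE30, in TE-1 and between lines (main 150, 189 and 440) were 496, 593 and 811 at 5 percentage points and 14, 24 and 147 at 20 points. Raising the minimum TPM to 10 gave 63, 96 and 271, and lowering it to 1 gave 395 and 400 with L-lactate. Fisher's exact test as a further condition left 75 in KYSE30. No fit that pairs the libraries by line or by treatment was run, since the values come from no test. With 1 library a group, none could be left out of a group. Depth limits the TE-1 values of *FADD* and *PPFIA1* (190 to 224 tags) and all intronic PACs.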

Other observations

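A PAC at chr11:70210206, 2816 nt past the annotated end of *FADD* on its strand, was listed in the KYSE30 control library alone, at TPM 3.23 from 24 tags. It lies outside the span of the gene and entered none of the values above.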
